A study of Danio rerio with 16 samples.

Results

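The measurements describe what chronic cortisol changed in the transcriptome of zebrafish larvae that lack intact *klf9*. The comparison was defined by the sample labels: the 4 samples of cortisol-treated *klf9*-/- larvae were set against the 4 samples of vehicle-treated *klf9*-/- larvae, with the day of RNA preparation as a covariate. These are 8 of the 16 samples of an RNA-seq experiment, whose other 8 samples are the same treatments in wild-type (WT) larvae. The *klf9*-/- larvae carried a frameshift deletion of 2 bp in both copies of *klf9*, made with CRISPR-Cas9 in exon 1, upstream of the part that encodes the DNA-binding domain. The line goes back to a single founder female, and the *klf9*-/- and WT larvae came from parents that were homozygous mutant and homozygous wild-type siblings of AB background, so the larvae of the 2 genotypes were not siblings of each other. Larvae were kept from about 4 h post fertilization in medium with 1 µM cortisol or with the DMSO vehicle alone, under 14 h of light and 10 h of dark at 28.5 °C. They were collected at 5 days post fertilization (dpf), 3 h after lights-on, within 22 min. Each sample is a pool of 10 whole larvae, and the 4 samples of a condition came from the same dish, so the p-values here measure the spread between samples of a dish and not between independent treatments.

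Cortisol is the main glucocorticoid of fish and humans. It binds the glucocorticoid receptor, a ligand-dependent transcription factor encoded by *nr3c1*, which raises or lowers the transcription of genes of metabolism, immunity, osmoregulation and the stress axis itself. *klf9* encodes a zinc-finger transcription factor of the Krüppel-like family that acts mostly as a repressor, and its own gene is a target of the glucocorticoid receptor in other vertebrates. By the study's account the receptor contributes to *klf9* expression in zebrafish larvae. What cortisol still raises and lowers without intact Klf9 is what the comparison measured.

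Values are normalized counts, read back from the deposited log2 values, and are given in the order of replicates 1, 2, 3 and 4. Replicates 1 and 2 were prepared on day 1, when the 8 frozen samples all received lysis buffer before the first was homogenized, and replicates 3 and 4 on day 2, when each was homogenized at once. The normalization gave every sample the same set of values, with the same sum of 14653434 and the same median of 113 normalized counts, so the depth of each library is unknown. At the top of the range a value is then fixed by a gene's rank, as for the keratin gene *krt4*, which stands at 187032 normalized counts in every sample. Because whole larvae were pooled, fewer cells of a type and less RNA per cell cannot be told apart in any result that follows. Gene names in capitals are human symbols given to zebrafish genes whose copies the names do not tell apart. List members that are named although they did not pass the threshold were chosen after their values were seen.

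*klf9* itself had 106, 134, 136 and 111 normalized counts in cortisol-treated *klf9*-/- larvae, against 135, 78, 100 and 111 in vehicle-treated *klf9*-/- larvae. The groups overlapped, and the difference of means was 15.8 normalized counts (p = 0.314, exact permutation test, two-sided, n = 4 each, where 0.0286 is the smallest p possible). In WT larvae the *klf9* mean was 383.8 with cortisol and 233.0 with vehicle, and every WT sample lay above every *klf9*-/- sample. Polyadenylated *klf9* RNA thus was still counted in the mutants, at a lower level than in WT larvae, and the deletion itself cannot be read from counts per gene.

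Cortisol raised 504 genes and lowered 539 genes in *klf9*-/- larvae, of 21490 genes tested (limma, Benjamini-Hochberg adjusted p under 0.05). These are 2.35% of the tested genes raised, 2.51% lowered and 4.85% in either direction, and shares of a gene list are read against them. The changes were moderate. The median log2 effect, cortisol minus vehicle, was 0.53 among the raised genes, or 1.44 times the vehicle level, and −0.48 among the lowered genes, or 71.9% of it. Only 18 raised genes reached a log2 effect of 1 and 15 lowered genes a log2 effect of −1. The 2 raised genes with log2 effects over 2 carry no informative name and are not described. At an unadjusted p under 0.05 there were 2800 genes with a positive and 3230 with a negative effect, and the smallest adjusted p was 0.0272.

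The counts of raised and lowered genes depended strongly on single libraries. The count was 0 raised and 0 lowered without cortisol replicate 1, cortisol replicate 3, vehicle replicate 2 or vehicle replicate 3 of the *klf9*-/- larvae (limma, with 2193 to 2482 raised and 2438 to 3125 lowered at an unadjusted p under 0.05), and 1 raised and 0 lowered without vehicle replicate 1. Every call of a raised or lowered gene in *klf9*-/- larvae named in this text is therefore lost in at least 4 of these fits. In the 8 *klf9*-/- samples alone, 1174 genes were raised (5.46%) and 1389 lowered (6.46%), and these included 484 of the 504 and 494 of the 539. With the replicate number as a block in place of the day, 244 genes were raised and 230 lowered. All 1043 genes kept their direction on both days, without each of the 16 samples in turn, and in every other setting tried. They were chosen for their effect in these same samples, so the kept directions follow largely from that choice and are no separate support for the calls. With 2 samples per condition and day, the effect is by construction the same in the 8 samples alone, with the block and with no day. Its direction could not change in those settings. The lowest effect without 1 sample was, in the median gene, 86.0% of the effect with all 16.

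**Figure D1:**
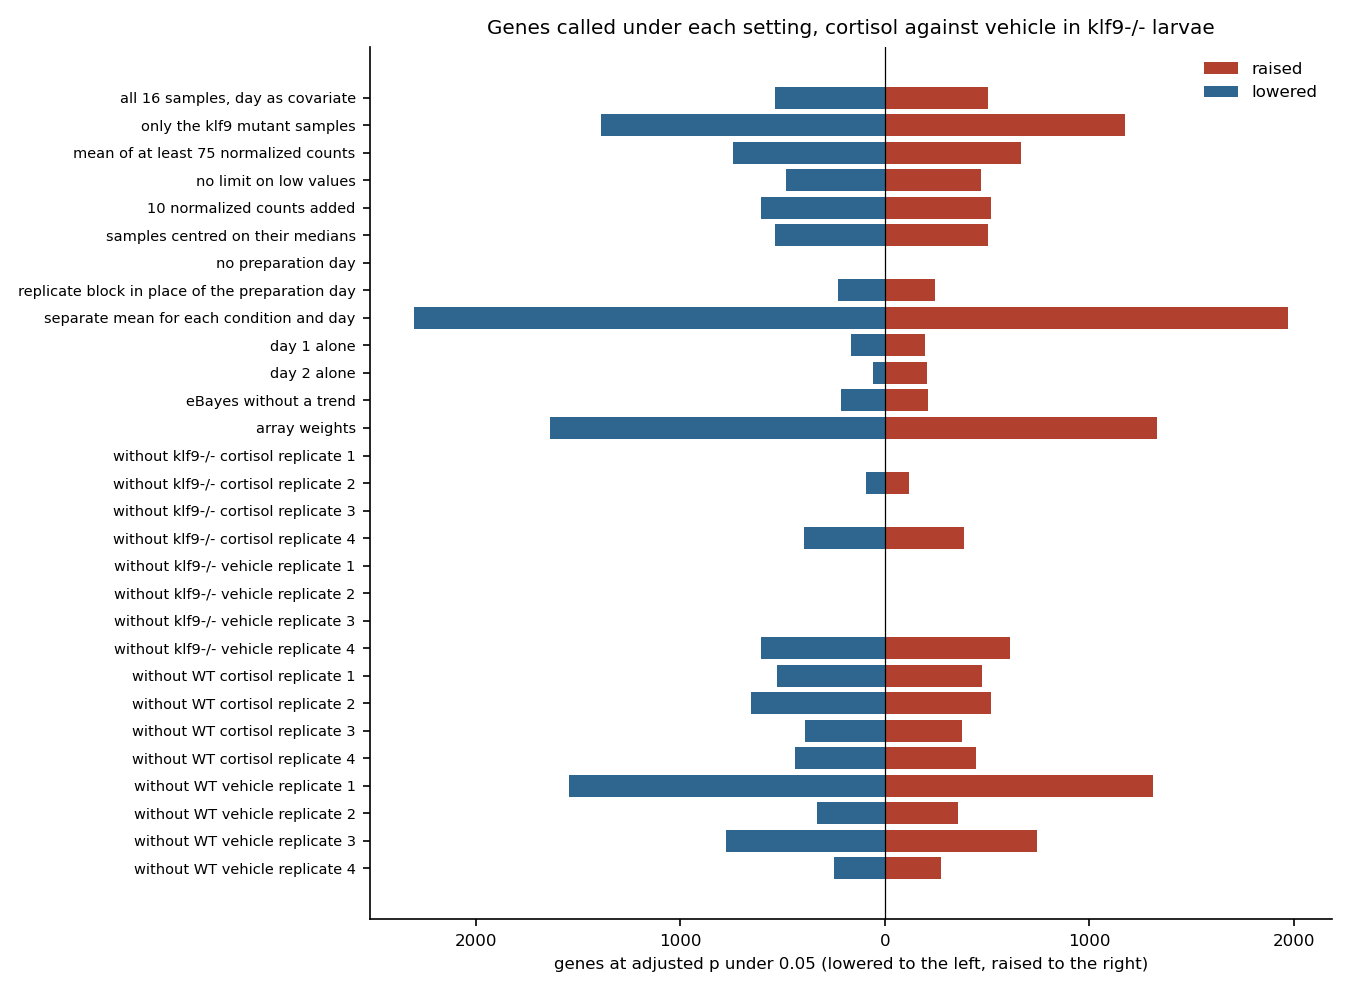
Number of genes past the threshold in each setting: bars to the right count genes raised by cortisol in klf9-/- larvae and bars to the left count genes lowered (adjusted p under 0.05). The uppermost bar shows the 504 raised and 539 lowered genes of the 16-sample model, and bars are missing where no gene passed, as without cortisol replicate 1 or with no preparation day in the model.

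The preparation day moved with these results. Among the 504 raised genes, 488 (96.8%) were higher on day 1 than on day 2 in the vehicle samples of WT larvae, which belong to neither of the groups compared, against 49.5% of all tested genes. Among the 539 lowered genes, 520 (96.5%) were lower on day 1 in the same WT samples, against 50.2% of all tested genes. Over all tested genes the cortisol effect in *klf9*-/- larvae and the difference between days in WT vehicle samples had a Pearson r of 0.458 and a Spearman rank correlation of 0.575. Genes are not independent replicates, and the 2 measures share the preparation of the RNA, so no test is given. All 504 raised genes had a positive and all 539 lowered genes a negative effect within each day. The groups did not overlap within either day for 479 of the raised and 530 of the lowered genes, against 10.9% and 13.2% of all tested genes in the same directions. Over both days together, all cortisol samples lay above all vehicle samples for 96 of the raised genes and below them for 169 of the lowered genes, against 1.28% and 2.48% of all tested genes. The called genes were chosen on these same samples, so these counts describe them and do not test the calls. By the study's account replicates 3 and 4 were also the later ones in the order of collection, so preparation day and collection order cannot be told apart, and the part of either in the calls was not tested. "Day" in what follows stands for both.

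Photoreceptor genes were the list with the most members lowered by count. By share, condensin and cohesin subunits (47.1%) and heterogeneous nuclear ribonucleoproteins (46.2%), families chosen after their values were seen, stood higher. Rods and cones detect light with opsins, which signal through the G protein transducin to a phosphodiesterase and cyclic nucleotide-gated channels, and zebrafish larvae at this age see mainly with cones. Of 44 genes tested, 14 were lowered and 0 raised (31.8%, against 2.51% of all tested genes), and the median log2 effect over the list was −0.59, against −0.01 over all tested genes. With the replicate block 9 of the 14 kept the call. Of the 4 members with a positive effect, 3 were the copies listed as *RPE65*, which encodes the isomerase of the visual cycle.

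Among the opsins, *opn1mw1*, a green cone opsin, had 3368, 3176, 4656 and 4802 normalized counts in cortisol-treated *klf9*-/- larvae, against 4960, 5307, 6196 and 6554 in vehicle-treated *klf9*-/- larvae. All cortisol samples lay below all vehicle samples (log2 effect −0.54 ± 0.08 SE, limma adjusted p = 0.0272). The red cone opsin *opn1lw2* had 2735, 3304, 4538 and 6003 normalized counts with cortisol, against 8350, 6814, 9118 and 8730 with vehicle. Here too the groups were apart, at a log2 effect of −1.05 ± 0.20 (adjusted p = 0.0318). A gene listed as *OPN1SW*, a short-wavelength opsin, had 16876, 15577, 37939 and 37939 normalized counts with cortisol and 37939, 37939, 47652 and 71694 with vehicle. Its groups met at 37939 but not within a day, and the log2 effect was −0.93 ± 0.20 (adjusted p = 0.0321). The opsins *opn1lw1* and *opn1mw2*, close copies of the red and green opsins whose reads may be shared with them, did not pass, and nor did *opn1sw2*, at 4061, 4538, 8350 and 9118 with cortisol against 9630, 9630, 9630 and 9993 with vehicle (log2 effect −0.67 ± 0.20, adjusted p = 0.0593).

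The signalling chain behind the cone opsins moved the same way. *GNAT2*, the cone transducin subunit, had 5304, 4202, 13024 and 16876 normalized counts with cortisol, against 11406, 11406, 23432 and 23432 with vehicle in *klf9*-/- larvae. The groups overlapped across days and not within a day (log2 effect −0.97 ± 0.25, adjusted p = 0.0443, and 0.0543 with the replicate block). *ARR3*, a cone arrestin that ends the opsin signal, had 1148, 1029, 3120 and 3946 with cortisol and 3175, 3175, 5090 and 4654 with vehicle (log2 effect −1.01 ± 0.25, adjusted p = 0.0409, and 0.0553 with the block). *RGS9*, which speeds up the shut-off of transducin, had 215, 202, 459 and 558 with cortisol and 552, 490, 748 and 722 with vehicle (log2 effect −0.93 ± 0.21, adjusted p = 0.0343). Both fell in each of the 4 same-numbered pairs. *RGS9* is not in the photoreceptor list and was named for the size of its fall. The other lowered members of the list were the channel subunit gene *CNGA3*, the kinase genes *grk1b* and *GRK1*, the disc rim genes *rom1a* and *PRPH2*, the calcium sensor gene *guca1d*, *GNB3*, *GUK1* and the photoreceptor regulator *NR2E3*, with log2 effects between −1.05 and −0.40. The cone phosphodiesterase gene *PDE6C* had a larger effect, −1.10 ± 0.33, and did not pass (adjusted p = 0.0594).

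The following genes are outside that list and were named for their p or the size of their fall. *FSCN2*, which bundles actin in photoreceptors, had 16, 13, 43 and 62 normalized counts with cortisol, against 61, 40, 97 and 92 with vehicle, and had the largest fall of the genes named by the rule on effect size (log2 effect −1.32 ± 0.23, adjusted p = 0.0272). The retinal homeobox genes *rx1* and *rx2*, needed for eye development, had log2 effects of −0.86 ± 0.24 and −0.86 ± 0.22, and neither kept the call with the block. The cone channel gene *cngb3.2* and *tulp1b*, a gene of the photoreceptor cilium, had −0.90 ± 0.21 and −0.90 ± 0.19. *BBS9*, a subunit of the ciliary transport complex BBSome, had −0.99 ± 0.26, and *NDRG4* −0.997 ± 0.243, and both lost the call with the block. Among 53 lens genes tested, 0 were raised and 0 lowered in limma (3 and 2 at an unadjusted p under 0.05, and 2 and 1 past the threshold in the 8 *klf9*-/- samples alone). With 2.35% of all tested genes raised and 2.51% lowered, a count of 0 in a list of this size is no result about it. The median log2 effect over the lens list was −0.03. The difference between the lens and photoreceptor lists was not tested.

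The size of the photoreceptor difference varied between days. The median over the 44 genes was −0.83 on day 1 and −0.37 on day 2. The summed level of the 44 genes was 69891, 64179, 152871 and 197648 normalized counts with cortisol, against 146375, 137967, 218138 and 243312 with vehicle. Within each day both cortisol samples were lower, and day 1 samples were lower than day 2 samples in both groups. In WT larvae the median over the list was −0.54. No member passed the test of a difference between genotypes, which called 0.168% of all tested genes. At that share a count of 0 among 44 genes is no result about the list.

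**Figure D2:**
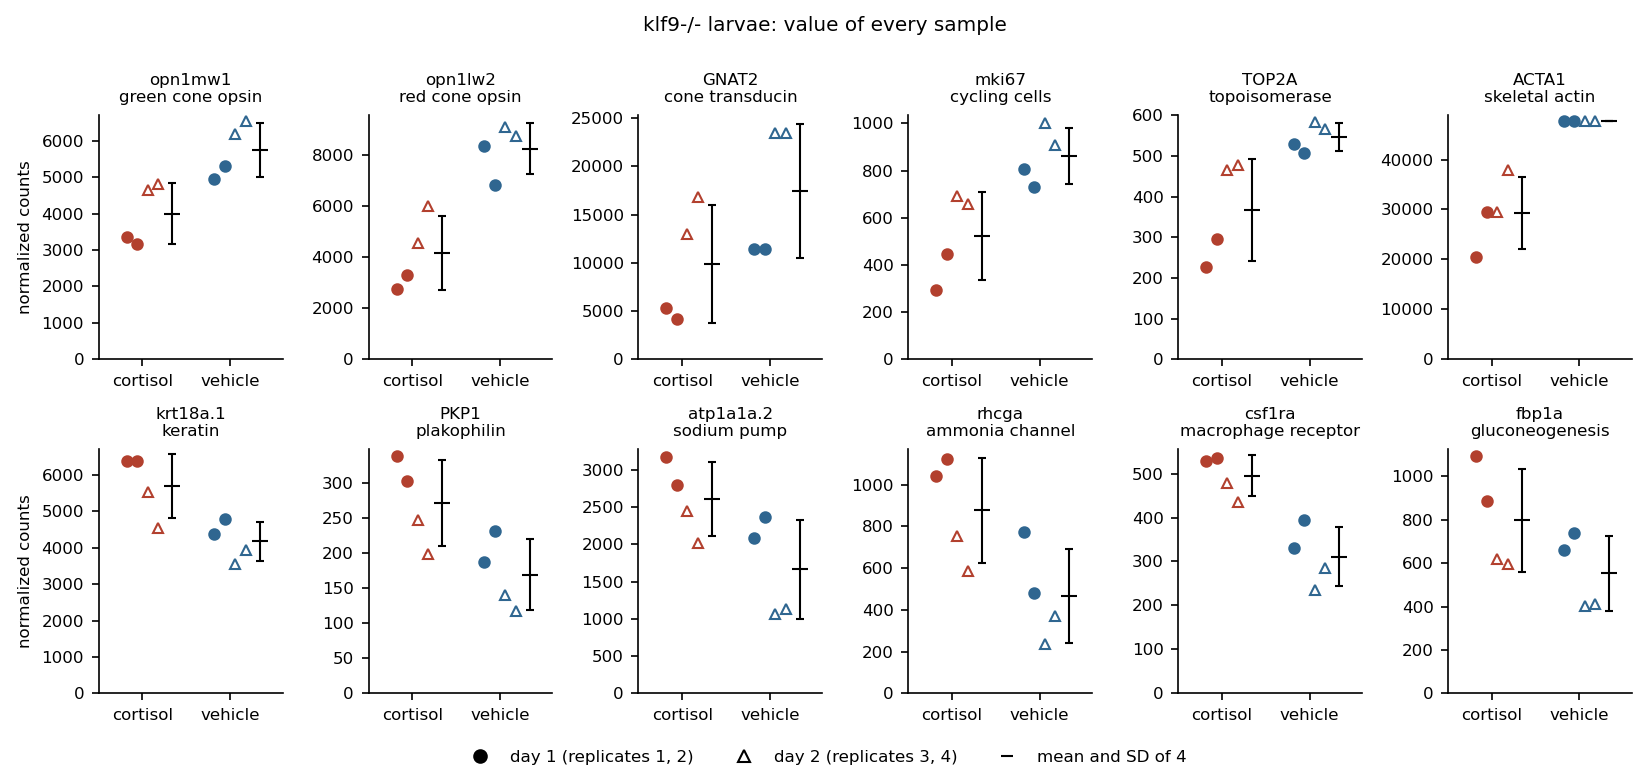
Normalized counts of 12 genes in every klf9-/- sample, cortisol on the left and vehicle on the right of each panel. Filled circles are day 1, open triangles day 2, and the bar beside each group is its mean and SD (n = 4). The upper row shows genes lowered by cortisol and the lower row genes raised, and opn1mw1, opn1lw2, mki67, TOP2A, ACTA1 and csf1ra are the panels in which the groups do not overlap.

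Some genes of the cell cycle were lowered by cortisol as well. The list holds cyclins, mitotic kinases, spindle proteins and replication factors, which are transcribed mainly in dividing cells. Of 42 tested, 8 were lowered and 0 raised (19.0%), with a median log2 effect of −0.16, and 4 of the 8 kept the call with the replicate block. *mki67*, the marker of cycling cells Ki-67, had 294, 445, 692 and 656 normalized counts with cortisol, against 808, 732, 1002 and 908 with vehicle in *klf9*-/- larvae. *TOP2A*, the topoisomerase that untangles replicated DNA, had 228, 296, 466 and 478 with cortisol and 529, 507, 584 and 566 with vehicle. The groups were apart for both, at log2 effects of −0.80 ± 0.19 and −0.64 ± 0.16 (adjusted p = 0.0356 and 0.0398, and 0.0547 and 0.0595 with the block). *TPX2* and *NUSAP1*, which organize spindle microtubules, had log2 effects of −0.60 ± 0.12 and −0.81 ± 0.17 and were also apart, as were the mitotic kinase genes *aurka* and *bub1bb* at −0.47 ± 0.10 and −0.68 ± 0.16. *kif11*, a spindle motor, and *CCNA2*, cyclin A, fell by 0.63 and 0.51 on the log2 scale and lost the call with the block.

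The next genes are outside that list and were among the lowered genes with the smallest p. *SMC4*, a core subunit of the condensin complex that compacts chromosomes, had 210, 228, 314 and 286 normalized counts with cortisol, against 368, 372, 424 and 387 with vehicle. *ncaph2*, a subunit of condensin II, had 59, 55, 55 and 57 with cortisol and 80, 74, 85 and 85 with vehicle. The groups of both genes were apart (log2 effects −0.60 ± 0.09 and −0.52 ± 0.08, adjusted p = 0.0272 each). *FOXM1*, the transcription factor of mitotic genes, had 46, 54, 76 and 78 with cortisol and 73, 84, 118 and 115 with vehicle, apart within each day only (log2 effect −0.62 ± 0.11, adjusted p = 0.0272). *ERCC6L*, a helicase at mitotic chromosomes, *gtse1*, a spindle protein, and *RTKN2* had log2 effects of −0.49, −0.65 and −0.66. *hnrnpa1a*, which binds nascent RNA and takes part in splicing, was in the same group of smallest p, at 1132, 1238, 1699 and 1842 with cortisol against 2178, 1842, 2312 and 2408 with vehicle (log2 effect −0.59 ± 0.10). The cell cycle list was not uniform, since 12 of its 42 genes had positive effects that did not pass. Its summed level was 11647, 12571, 13303 and 12042 normalized counts with cortisol, against 13931, 13857, 12951 and 13241 with vehicle, and was higher with cortisol in the pair of replicates 3.

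Of 59 sarcomere genes of skeletal muscle, 2 were lowered (3.39%) and 1 raised (1.69%), shares near those of all tested genes, and the median log2 effect was −0.06. In the 8 *klf9*-/- samples alone 5 were lowered and 3 raised. *ACTA1*, skeletal muscle actin, had 20392, 29419, 29419 and 37956 normalized counts with cortisol, against 47665 in each vehicle sample, the value of 1 rank that the gene held in all 4. *MYOM2*, an M-band protein that links thick filaments, had 6814, 7868, 9993 and 9993 with cortisol and 11406, 11406, 14830 and 14830 with vehicle. Both were apart and kept the call with the block (log2 effects −0.74 ± 0.16 and −0.60 ± 0.11, adjusted p = 0.0332 and 0.0318). *DES*, the intermediate filament protein desmin, rose, with 4302, 4064, 4064 and 3626 with cortisol against 3306, 3176, 2614 and 3440 with vehicle (log2 effect 0.36 ± 0.09, adjusted p = 0.0418, and 0.0602 with the block). Its groups did not overlap either.

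Heat shock genes and chaperones, which fold proteins and among them the glucocorticoid receptor, had 5 members lowered and 0 raised of 37 (13.5%), with a median log2 effect of −0.19. *UNC45B*, the myosin chaperone of muscle, had 332, 358, 362 and 346 normalized counts with cortisol, against 538, 426, 526 and 598 with vehicle, apart in all samples (log2 effect −0.57 ± 0.12, adjusted p = 0.0329). It is the only one of the 5 that kept the call with the block. *hsp90aa1.1*, the Hsp90 of muscle in zebrafish, had 1463, 1922, 1315 and 1221 with cortisol and 2528, 1748, 2140 and 2216 with vehicle, and the groups overlapped in 1 sample each (log2 effect −0.55 ± 0.15, adjusted p = 0.0442). *HSP90AA1*, *STIP1*, which passes clients from Hsp70 to Hsp90, and *dnaja1*, an Hsp70 partner, fell by 0.45, 0.32 and 0.34 on the log2 scale.

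Synaptic genes had a negative effect in 48 of 52 members, with a median log2 effect of −0.27, but only 2 passed. That is 3.85% of the list, near the 2.51% of all tested genes lowered. *SLC17A7*, a vesicular glutamate transporter, had 288, 226, 400 and 493 normalized counts with cortisol, against 410, 398, 526 and 521 with vehicle. Its groups were apart within each day and overlapped across days (log2 effect −0.45 ± 0.12, adjusted p = 0.0495, and 0.0547 with the block). In the 8 *klf9*-/- samples alone 15 members were lowered. The summed level of the list was 42281, 40662, 76731 and 87787 with cortisol, against 58209, 58062, 97546 and 93805 with vehicle, so that it too differed more between days than between treatments. Of the glial and myelin genes, *SLC1A2*, a glutamate transporter that is also found in retinal cells, was lowered (1 of 18, or 5.56%), with a log2 effect of −0.75 ± 0.19.

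Among the lists, lysosomal genes and *KCNJ1* copies aside, the epidermal list had the highest share of raised genes. The skin of the larva is a bilayer of keratinocytes held together by desmosomes and tight junctions, with mucous cells and ionocytes between them. Of 29 keratin and epidermal genes, 6 were raised and 0 lowered (20.7%, against 2.35% of all tested genes), with a median log2 effect of 0.45, and 3 of the 6 kept the call with the replicate block. In the 8 *klf9*-/- samples alone 14 were raised. The summed level of the list was 627656, 596063, 519877 and 498186 normalized counts with cortisol, against 497669, 478286, 387548 and 403015 with vehicle. Each cortisol sample was above the vehicle sample of its number, and day 1 was higher than day 2 in both groups.

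*krt18a.1*, a type I keratin, had 6365, 6365, 5515 and 4538 normalized counts with cortisol, against 4380, 4799, 3558 and 3946 with vehicle in *klf9*-/- larvae. *PKP1*, the desmosomal protein plakophilin 1, had 338, 303, 247 and 199 with cortisol and 187, 232, 140 and 118 with vehicle. Both were apart within each day and overlapped across days (log2 effects 0.45 ± 0.09 and 0.70 ± 0.14, adjusted p = 0.0318 each). *PKP1* had a log2 effect of 0.07 in WT larvae. The difference between the genotypes, 0.632 ± 0.197, did not pass (limma adjusted p = 0.549, unadjusted p = 0.00561), which does not show that they responded alike. *ANXA1*, a membrane-binding annexin that glucocorticoids raise in mammalian cells, had 6552, 5304, 2692 and 2793 with cortisol and 3066, 3066, 1322 and 1659 with vehicle (log2 effect 0.92 ± 0.19, adjusted p = 0.0318). Its groups were apart within each day. *krt17* had 71694 in all 4 cortisol samples, the value of a single rank, and 37939, 47652, 20382 and 26483 with vehicle (log2 effect 1.19 ± 0.29, adjusted p = 0.0398, and 0.0537 with the block). *krt15* and the tight junction gene *cldne* had 0.53 ± 0.13 and 0.54 ± 0.15, and lost the call with the block. The basal keratin gene *krt5* had 121468, 121468, 71716 and 71716 with cortisol and 71716, 47665, 37956 and 37956 with vehicle, and did not pass (limma adjusted p = 0.0766). The most abundant keratin gene, *krt4*, held the highest value, 187032, in every sample, so a rise could not have been seen.

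Among the largest rises outside the lists, *mslna*, a zebrafish mesothelin, had 222, 188, 148 and 102 normalized counts with cortisol, against 106, 107, 42 and 50 with vehicle (log2 effect 1.18 ± 0.20, adjusted p = 0.0272). *tmprss13a*, a membrane-bound serine protease, had 242, 196, 132 and 88 with cortisol and 121, 125, 54 and 50 with vehicle (log2 effect 0.94 ± 0.17, adjusted p = 0.0318). Both were higher in the cortisol sample of every pair, and their groups overlapped only through the spread between days. Of 56 collagen genes 1 was raised (1.79%, near the 2.35% of all tested genes) and 0 lowered. It was *col14a1b*, which encodes a collagen that binds fibrils, at a log2 effect of 0.55 ± 0.14, and it lost the call with the block.

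Of the ionocyte and osmoregulation genes, which move ions and ammonia across skin and gill, 5 of 31 were raised and 0 lowered (16.1%), and 4 kept the call with the block. The list median was only 0.08, and 11 members had negative effects, none past the threshold in the 16-sample model. In the 8 *klf9*-/- samples alone 7 were raised and 2 lowered. The summed level of the list was 35668, 34597, 38293 and 36080 normalized counts with cortisol, against 37279, 37409, 34505 and 34058 with vehicle, so it was lower with cortisol on day 1 and higher on day 2. *rhcga*, an ammonia channel, had 1043, 1125, 754 and 586 normalized counts with cortisol, against 772, 480, 239 and 373 with vehicle (log2 effect 0.99 ± 0.20, adjusted p = 0.0318). *rhcgb*, the ammonia channel of acid-secreting ionocytes, had 228, 191, 186 and 117 with cortisol and 154, 125, 88 and 99 with vehicle (0.62 ± 0.13, adjusted p = 0.0318). *atp1a1a.2*, a sodium pump subunit, had 3175, 2793, 2450 and 2014 with cortisol and 2088, 2372, 1072 and 1130 with vehicle (0.72 ± 0.14, adjusted p = 0.0318). All 3 genes were apart within each day and overlapped across days. *TRPV6*, the epithelial calcium channel, had 3120, 2067, 1842 and 1238 with cortisol and 1699, 1748, 778 and 702 with vehicle (log2 effect 0.80 ± 0.20, adjusted p = 0.0418, and 0.0569 with the block). A copy of *SLC4A1*, an anion exchanger that also stands in the erythrocyte list, was raised by 0.65 ± 0.18. The sodium-chloride cotransporter gene *SLC12A3* had the lowest effect of the list, −0.61, and did not pass.

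Immune genes were mostly higher with cortisol, and few passed. Of 28 macrophage genes 4 were raised and 0 lowered (14.3%), and 26 had positive effects, with a median of 0.33. *csf1ra*, the receptor for colony stimulating factor 1, which macrophages and yellow pigment cells carry, had 528, 536, 478 and 436 normalized counts with cortisol, against 330, 394, 235 and 286 with vehicle, apart in all samples (log2 effect 0.69 ± 0.15, adjusted p = 0.0321). *CORO1A*, an actin-binding protein of leukocytes, had 267, 272, 206 and 135 with cortisol and 190, 156, 76 and 96 with vehicle (0.81 ± 0.14, adjusted p = 0.0272). *MFAP4* had 43, 50, 32 and 23 with cortisol and 29, 18, 13 and 13 with vehicle (1.04 ± 0.25, adjusted p = 0.0387), and *cyba*, a subunit of the phagocyte oxidase, had a log2 effect of 0.52 ± 0.12. The calls of *MFAP4* and *cyba* were lost with the block. The macrophage marker *mpeg1.1* had 88, 118, 80 and 42 with cortisol and 96, 58, 30 and 32 with vehicle, and did not pass (adjusted p = 0.0767). Of 15 genes in the neutrophil list, all had positive effects and 2 were raised (13.3%). These were *nccrp1* and the chemokine receptor gene *CXCR4*, with a log2 effect of 0.64 each, both lost with the block. Which cells of the larva account for the 2 rises was not tested.

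Of 33 cytokine and NF-kB genes, 2 were raised and 0 lowered (6.06% raised, against 2.35% of all tested genes), and both kept the call with the block. *il10rb*, a receptor chain for interleukin 10 and related cytokines, had 774, 772, 479 and 482 normalized counts with cortisol, against 457, 446, 286 and 344 with vehicle. All its cortisol samples lay above all vehicle samples (log2 effect 0.70 ± 0.11, adjusted p = 0.0272). *stat4*, a transducer of cytokine signals, had 0.51 ± 0.12 (adjusted p = 0.0338). *ifitm1*, a membrane protein that hinders the entry of viruses, stood among the largest rises, with 282, 315, 216 and 132 with cortisol and 134, 191, 87 and 84 with vehicle (0.94 ± 0.18, adjusted p = 0.0318). Of 21 complement genes 2 were raised (9.52%), *cfd* and *c6.2*, and neither kept the call with the block. The complement list had a median of −0.16 on day 1 and 0.75 on day 2, and 8 of its members had positive effects on day 1 against 20 on day 2. The test of a difference between days called 5 of the 21, against 0.168% of all tested genes.

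Interferon-stimulated genes, which mark the antiviral response, had a lower median effect in *klf9*-/- larvae than in WT larvae. Of 24 tested, 0 passed in limma in *klf9*-/- larvae (5 had a positive effect at an unadjusted p under 0.05, and 1 was raised in the 8 *klf9*-/- samples alone), with a median log2 effect of 0.35, against a median of 1.37 in WT larvae. With 2.35% of all tested genes raised, a count of 0 in a list of this size is no result about the list. Effects were positive for 19 of the 24 in *klf9*-/- larvae and 23 in WT larvae, and the *klf9*-/- median was near the 0.33 of the macrophage list. The test of the difference between the cortisol effects, *klf9*-/- minus WT, called 36 of all 21490 genes (0.168%), all with the lower effect in *klf9*-/- larvae, and 4 of the 24 interferon-stimulated genes, 4 of the 28 macrophage genes, 1 of the 15 neutrophil genes and 1 of the 33 cytokine genes were among them. The genes named next were chosen after their values were seen. *mxc*, an antiviral Mx protein gene, had 16, 22, 11 and 6 normalized counts with cortisol and 12, 11, 6 and 6 with vehicle in *klf9*-/- larvae, against 314, 358, 140 and 92 with cortisol and 10, 24, 18 and 12 with vehicle in WT larvae (difference of log2 effects −3.12 ± 0.45, adjusted p = 0.00622). *irf1b*, an interferon regulatory factor, had 109, 108, 82 and 49 with cortisol and 71, 96, 46 and 50 with vehicle in *klf9*-/- larvae, against 895, 838, 288 and 218 with cortisol and 64, 118, 44 and 49 with vehicle in WT larvae (−2.47 ± 0.33, adjusted p = 0.00366). Vehicle samples of both genotypes were in the same range for these genes, and the cortisol samples were not.

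The same held for *stat1b*, the interferon signal transducer, with 16, 16, 13 and 10 normalized counts with cortisol and 18, 9, 8 and 7 with vehicle in *klf9*-/- larvae, against 94, 94, 65 and 35 with cortisol and 13, 10, 8 and 7 with vehicle in WT larvae (difference −2.38 ± 0.33, adjusted p = 0.0046). *cybb*, the catalytic subunit of the phagocyte oxidase, *marco*, a scavenger receptor of macrophages, and *ncf1*, an oxidase subunit, had differences of −1.43 ± 0.20, −1.74 ± 0.25 and −1.13 ± 0.19. In *klf9*-/- larvae alone their log2 effects were 0.26, 0.15 and 0.33, with adjusted p from 0.129 to 0.602. The 4 raised macrophage genes did not pass the test of the difference (limma adjusted p from 0.805 to 0.994), which does not show that they responded alike. Their differences were −0.472 ± 0.195 for *CORO1A* and −0.402 ± 0.175 for *cyba* (unadjusted p = 0.028 and 0.0357). They were −0.164 ± 0.358 for *MFAP4* and 0.2 ± 0.207 for *csf1ra*. Of the 28 macrophage genes, 14 had an unadjusted p under 0.05 in this test. The list median was 0.33 in *klf9*-/- larvae and 0.87 in WT larvae. Among the 1043 genes raised or lowered in *klf9*-/- larvae, 1 passed the test of the difference, *olfm4l2*, an olfactomedin gene with 88, 94, 62 and 55 with cortisol and 78, 72, 30 and 34 with vehicle in *klf9*-/- larvae (log2 effect 0.57 ± 0.15, against 2.56 in WT larvae, adjusted p of the difference 0.00209).

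**Figure D3:**
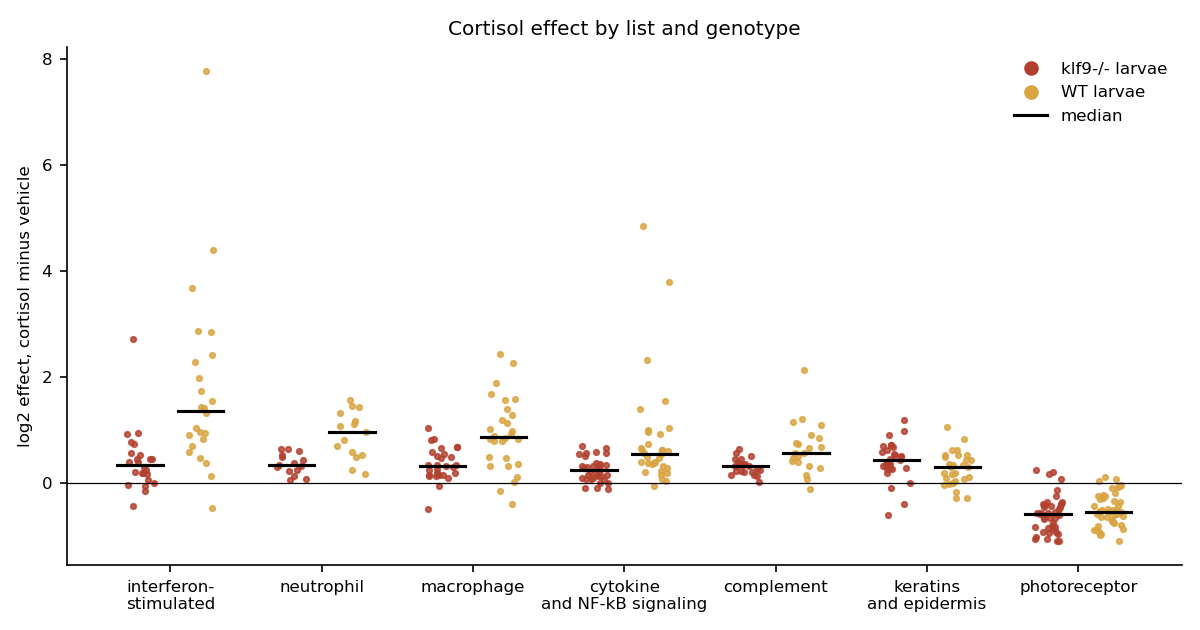
Log2 effect of cortisol (cortisol minus vehicle) of each member of 7 gene lists, klf9-/- larvae on the left and WT larvae on the right of each pair, with the list median as a bar. The medians of the interferon-stimulated list are 0.35 in klf9-/- and 1.37 in WT larvae and those of the photoreceptor list −0.59 and −0.54.

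Metabolic genes gave short lists of rises. Among 29 genes of gluconeogenesis and the switch of fuels, which glucocorticoids govern in liver, 3 were raised and 0 lowered, with a list median of 0.03. *fbp1a*, fructose-bisphosphatase of gluconeogenesis, had 1092, 885, 618 and 596 normalized counts with cortisol, against 660, 737, 402 and 412 with vehicle (log2 effect 0.54 ± 0.11, adjusted p = 0.0318). *g6pc1a.1*, glucose-6-phosphatase, which releases glucose from cells, had 226, 224, 168 and 194 with cortisol and 206, 140, 88 and 114 with vehicle (0.63 ± 0.17, adjusted p = 0.0457, and 0.0662 with the block). Both were higher in each cortisol sample than in the vehicle samples of its day. *acadm*, of mitochondrial fatty acid oxidation, had 0.21 ± 0.06 and lost the call with the block. *pck1*, the rate-limiting enzyme of gluconeogenesis, had 1968, 2644, 3368 and 3120 with cortisol and 2488, 1682, 1802 and 2694 with vehicle, and did not pass (adjusted p = 0.314).

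Of 33 genes of amino acid catabolism, 4 were raised and 0 lowered (12.1%), 3 of which act in tyrosine breakdown. The list median was −0.02 on day 1 and 0.32 on day 2. Effects were positive for 15 of the 33 genes on day 1 and for 28 on day 2. *GSTZ1*, maleylacetoacetate isomerase, had 792, 722, 358 and 424 normalized counts with cortisol, against 458, 415, 237 and 288 with vehicle (log2 effect 0.69 ± 0.15, adjusted p = 0.0323). *HPD* and *HGD*, which act before it in the same pathway, had 0.45 ± 0.11 and 0.46 ± 0.12 and lost the call with the block, and *BCKDHB*, of branched-chain amino acid breakdown, had 0.41 ± 0.09. *HPD* had 0.25 on day 1 and 0.65 on day 2, and *HGD* had 0.24 and 0.69. *GSTZ1* had the smaller effect on day 2 (0.79 on day 1 and 0.58 on day 2), and *BCKDHB* had 0.36 and 0.45. The lipid enzyme gene *ACADL* and the apolipoprotein gene *apoeb* were raised by 0.28 ± 0.06 and 0.47 ± 0.12. Each was the only raised gene of its list, 1 of 32 lipid genes (3.12%) and 1 of 31 liver plasma protein genes (3.23%). Both shares are near the 2.35% of all tested genes. Of 27 genes of cholesterol synthesis, 33 of glycolysis and 18 of the exocrine pancreas, 0 passed in limma, and 5, 8 and 1 had an unadjusted p under 0.05. With 4.85% of all tested genes called, counts of 0 in lists of these sizes are no result about them. In the 8 *klf9*-/- samples alone 2 genes of cholesterol synthesis were raised and 3 of glycolysis lowered. The pancreatic list had a median of −0.55 on day 1 and 0.50 on day 2, and the liver plasma protein list of −0.09 and 0.60. Of the 31 liver plasma protein genes, 3 passed the test of a difference between days, against 0.168% of all tested genes.

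Of 26 direct targets of the glucocorticoid receptor, as known mainly from mammals, 0 passed in limma (9 had an unadjusted p under 0.05), 13 had positive and 13 negative effects, and the median log2 effect was 0.04. With 4.85% of all tested genes called, a count of 0 in a list of this size is no result about the list. In the 8 *klf9*-/- samples alone 4 were raised and 3 lowered. *fkbp5*, a co-chaperone of the receptor and its most used target gene, had 463, 1154, 954 and 426 normalized counts with cortisol, against 901, 317, 492 and 745 with vehicle. The samples of both groups ran from low to high within each day, and the log2 effect of 0.26 ± 0.41 turned negative without cortisol replicate 2 (−0.02) or vehicle replicate 2 (−0.04). In WT larvae *fkbp5* had 500, 1007, 536 and 704 with cortisol and 516, 279, 797 and 306 with vehicle. *tsc22d3*, the glucocorticoid-induced leucine zipper, had 1322, 1346, 1060 and 885 with cortisol and 1400, 915, 748 and 833 with vehicle (adjusted p = 0.168). *nfkbiaa*, an inhibitor of NF-kB, came closest, with 436, 406, 232 and 220 with cortisol and 296, 222, 162 and 164 with vehicle (log2 effect 0.59 ± 0.18, adjusted p = 0.0569, and 0.0148 in the 8 *klf9*-/- samples alone), and *CEBPB* had 0.37 ± 0.13 (adjusted p = 0.0875, and 0.0418 in the 8 samples alone). The receptor gene itself, *NR3C1*, had 778, 748, 860 and 876 with cortisol and 836, 868, 872 and 848 with vehicle (log2 effect −0.07 ± 0.06, adjusted p = 0.457).

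In the stress axis, where hypothalamic and pituitary hormones drive the synthesis of cortisol and cortisol feeds back on them, *pomca* was raised and *CRHR1* lowered, of 15 genes tested (6.67% each). *pomca*, the precursor of adrenocorticotropic hormone, had 43, 90, 44 and 12 normalized counts with cortisol, against 51, 26, 5 and 6 with vehicle. Its groups overlapped on day 1, and the log2 effect of 1.41 ± 0.37 had an adjusted p of 0.0457 (0.0649 with the block). *CRHR1*, a receptor of corticotropin-releasing hormone, had 62, 68, 136 and 173 with cortisol and 102, 108, 226 and 187 with vehicle (−0.56 ± 0.15, adjusted p = 0.0456, and 0.0646 with the block). *pomca* was not called in the 8 *klf9*-/- samples alone. Of 39 circadian clock genes, 1 was lowered (2.56%, near the 2.51% of all tested genes). It was *bmal2*, an activator of the clock, with 35, 40, 62 and 66 with cortisol and 59, 48, 90 and 94 with vehicle (−0.52 ± 0.12, limma adjusted p = 0.0332). The effects of 33 of the 39 were negative, with a median of −0.14.

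Genes of protein synthesis and of mitochondria gave small shifts over many members. Of 87 cytosolic ribosomal protein genes, 76 had positive effects, with a median log2 effect of 0.18. In the 16-sample model 1 was raised and 1 lowered (1.15% each), against 17 raised and 1 lowered in the 8 *klf9*-/- samples alone. *RPS6* had 37956, 47665, 23442 and 23442 normalized counts with cortisol and 26492, 18166, 14834 and 16883 with vehicle (0.76 ± 0.16, adjusted p = 0.0318). *RPS24* had 37939, 47652, 23432 and 26483 with cortisol and 71694, 71694, 37939 and 29412 with vehicle (−0.59 ± 0.15, adjusted p = 0.0396, and 0.0541 with the block). Both stand at the top of the range, where values move by whole ranks. Of 94 nuclear genes of the respiratory chain, 83 had positive effects and 1 was raised (1.06%), *ATP5F1C*, of the ATP synthase (0.46 ± 0.12, lost with the block), while 30 were raised in the 8 *klf9*-/- samples alone. Of the 13 respiratory chain genes of the mitochondrial genome, 12 had negative effects and 0 a positive one, the median was −0.29, and 0 passed in limma (5 at an unadjusted p under 0.05, and 2 lowered in the 8 *klf9*-/- samples alone). Among 72 translation factors 3 were raised (4.17%) and 2 lowered (2.78%), near the 2.35% and 2.51% of all tested genes. The lowered gene *eif5b*, which joins the ribosomal subunits, had 808, 848, 898 and 908 with cortisol against 1212, 1048, 1304 and 1154 with vehicle, apart in all samples (−0.44 ± 0.09, limma adjusted p = 0.0318).

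The raised genes with the smallest p include several others. *SQSTM1*, the autophagy receptor p62, was the only raised gene of 29 of muscle atrophy and autophagy (3.45%, near the 2.35% of all tested genes). It had 1747, 1611, 1266 and 960 normalized counts with cortisol, against 1072, 1220, 639 and 688 with vehicle (log2 effect 0.64 ± 0.10, limma adjusted p = 0.0272). *FPGS*, which adds glutamates to folate and keeps it in the cell, had 508, 490, 394 and 370 with cortisol and 395, 372, 280 and 290 with vehicle (0.40 ± 0.06, adjusted p = 0.0272). *EXOSC1*, a subunit of the RNA exosome, had 386, 314, 294 and 292 with cortisol and 244, 263, 191 and 194 with vehicle (0.53 ± 0.09, adjusted p = 0.0272). Only *EXOSC1* of these was apart over all samples, and the other genes were apart within each day. *vwa5a*, the protease inhibitor gene *SERPINB1*, *PAQR6*, a membrane receptor of the progestin and adipoQ family, and *hps5*, which serves the making of pigment organelles, had log2 effects of 0.60, 0.39, 0.65 and 0.44, each with an adjusted p of 0.0272. Of 22 pigment cell genes 2 were raised (9.09%), *OCA2* and *MLPH*, which act on melanosomes, at 0.34 and 0.44. In the lists not yet described, 1 gene was raised and 1 lowered of 30 immediate early genes (*KLF6* and *EGR2*, 3.33% each) and of 31 genes of the unfolded protein response (*XBP1* and *CALR*, 3.23% each). The intestinal list had 1 of 21 genes raised (*PLA2G12B*, 4.76%). Of 41 proteasome, 22 vascular, 15 heart and 12 thyroid and pituitary genes, 0 passed in limma, and 15, 4, 2 and 3 had an unadjusted p under 0.05. With 4.85% of all tested genes called, these counts of 0 are no result about the lists. The effects of 35 of the 41 proteasome genes were positive, and in the 8 *klf9*-/- samples alone 12 of them and 1 heart gene were raised.

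Of the remaining large rises, *cbln18*, a cerebellin-like gene, had 128, 130, 108 and 120 normalized counts with cortisol, against 80, 66, 43 and 84 with vehicle, apart in all samples (log2 effect 0.87 ± 0.18, adjusted p = 0.0318, and −0.01 in WT larvae). The difference from WT larvae was 0.881 ± 0.255 and did not pass (limma adjusted p = 0.443, unadjusted p = 0.00339). *otomp*, a matrix protein of the ear stones, had 483, 600, 414 and 166 with cortisol and 277, 410, 104 and 120 with vehicle (0.95 ± 0.26, adjusted p = 0.0472, and 0.0525 with the block). *ly97.3*, *btr30*, *mrpl20*, *pik3c2g* and *srsf3a* rose by 0.94, 0.88, 0.87, 0.90 and 0.98 on the log2 scale, and of these *ly97.3* alone kept the call with the block. *srsf3a*, a splicing factor, had a log2 effect of −0.25 in WT larvae, and its difference of 1.23 ± 0.384 did not pass either (limma adjusted p = 0.549, unadjusted p = 0.00562). Not passing does not show that the genotypes responded alike. *ppp1r18*, which binds protein phosphatase 1, stood among the falls, with 73, 60, 124 and 173 with cortisol and 161, 142, 234 and 208 with vehicle (−0.89 ± 0.17, adjusted p = 0.0318).

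**Figure D4:**
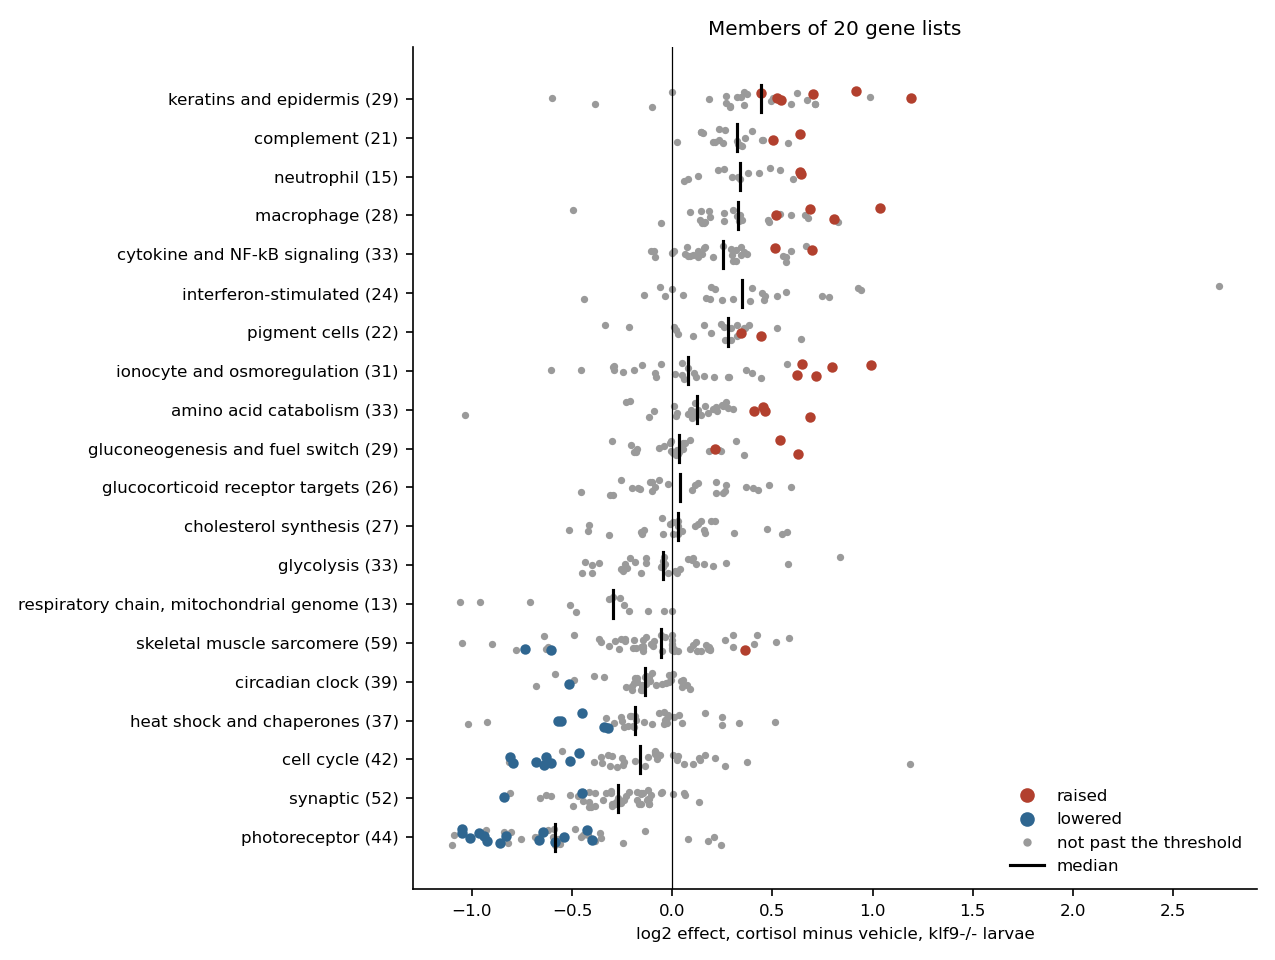
Log2 effect of cortisol in klf9-/- larvae for each tested member of 20 gene lists (number tested in brackets), with raised members in red, lowered members in blue, all others in grey and the list median as a bar. Photoreceptor genes lie lowest, with 14 of 44 lowered and a median of −0.59, and keratins and epidermis highest, with 6 of 29 raised and a median of 0.45.

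Over the called genes, the effects in WT larvae mostly had the same sign as in *klf9*-/- larvae. The WT effect was positive for 482 of the 504 raised genes, with a median of 0.32, and negative for 531 of the 539 lowered genes, with a median of −0.34. The genes were chosen in *klf9*-/- larvae, so the medians are a description and no test of which genotype responds more, and the 2 comparisons share the day of preparation though not their control samples. In WT larvae 171 of the raised genes were raised and 187 of the lowered genes lowered, and 0 passed in the opposite direction in limma (0 at an unadjusted p under 0.05). Of all 21490 tested genes, 1003 were raised and 857 lowered in WT larvae, and 9823 had a positive WT effect. Among all genes, 1231 had an unadjusted p under 0.05 in the test of the difference, and 93 of these were raised and 46 lowered in *klf9*-/- larvae.

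The median effects of the 2 preparation days were close in the raised genes and less so in the lowered genes. Single raised genes differed more, in both directions: *krt17* had 0.754 on day 1 and 1.63 on day 2, and *pik3c2g* had 1.34 and 0.459. Raised genes had a median of 0.53 on day 1 and 0.52 on day 2, and lowered genes one of −0.56 on day 1 and −0.39 on day 2. A test of the difference between days in *klf9*-/- larvae called 36 of all genes (0.168%), 30 of them with the higher effect on day 2 (0.14%) and 6 with the lower one (0.0279%), and 0 of the 1043 called genes (limma, 101 at an unadjusted p under 0.05). At a share of 0.168% a count of 0 is no result about the called genes. They were also chosen in a model with a single day term, which disfavours genes whose effect differs between days. In fits of a single day, with 2 samples per condition and both genotypes included, 198 genes were raised and 167 lowered on day 1, and 204 raised and 58 lowered on day 2.

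**Figure D5:**
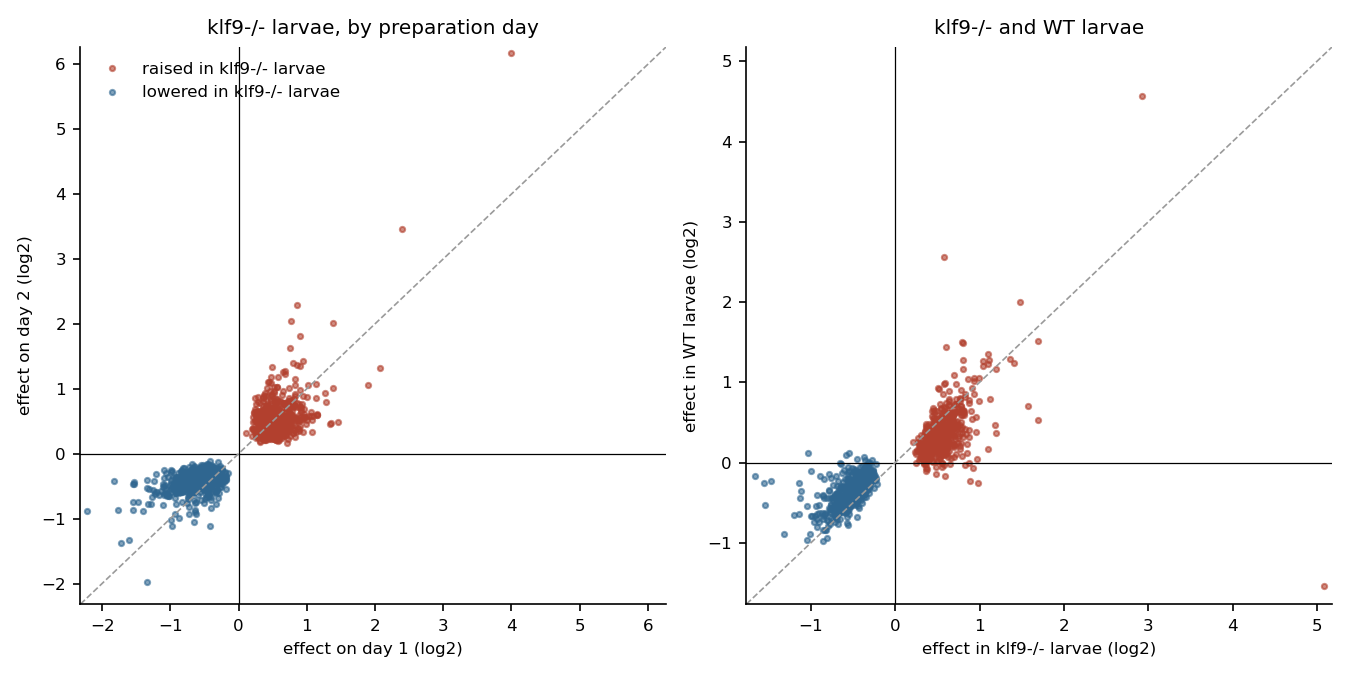
Log2 effects of cortisol for the 1043 genes raised (red) or lowered (blue) in klf9-/- larvae, with the dashed line marking equal effects. Left, day 2 against day 1, where every raised gene is positive and every lowered gene negative on both days; right, WT against klf9-/- larvae, where 482 raised genes are positive and 531 lowered genes negative in WT larvae.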

How the data were processed

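Polyadenylated RNA of 16 pools of 10 larvae was sequenced from a single end. Per the labels and the study's methods, the authors trimmed reads with Trimmomatic 0.38, aligned them to GRCz11 with STAR 2.6.1b, estimated expected counts with RSEM 1.3.0 and Ensembl annotation, and used DESeq2 1.24.0 in R 3.6.1. The deposited table holds log2 values of normalized counts with 0.1 added by the authors, after GC correction within and full-quantile normalization between libraries. That step gives every sample the same distribution: library depth and counting error are then unknown, gene-wise ties appear at the top, and a change over most genes would be removed. After reversing the log2, values were whole to within 1.8e-09.

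Because the values are not raw counts, limma 3.58.1 (R 4.3.3, eBayes with trend, two-sided) was fitted on the log2 values of the 21490 genes, of 22994, that averaged 5 or more normalized counts, with the 4 conditions and the preparation day as terms over all 16 samples. p-values were adjusted over all tested genes by Benjamini-Hochberg, with a threshold of 0.05. Effects are on the log2(normalized count + 0.1) scale, cortisol minus vehicle, ± SE. The fitting was tested on simulated data. Effects within a day and their difference came from a model with a mean for each condition and day, and the genotype difference from a contrast of the cortisol effects. *klf9* was tested by exact permutation. The deviations of same-numbered *klf9*-/- samples correlated (r = 0.295, 0.428, 0.239 and 0.496), and not once the day was removed (−0.05 to 0.01), so the numbers pair samples through the preparation day or the order of collection, which the study gives as running together and which cannot be told apart.

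The genes named were *klf9*, then, of genes past the threshold with the same sign in the 4 same-numbered pairs, an average of 50 or more in the 8 samples and an informative symbol, the 15 largest rises and falls and the 10 smallest p in each direction, and then list members past the threshold with no condition on sign or level. List members that did not pass, genes that differed between genotypes and gene families such as kinesins and lysosomal enzymes were chosen after their values were seen. Results for some genes are not reported here. The comparison, lists and tests were chosen with earlier results of these data known. A symbol was found for 21809 of 22994 identifiers, and 960 of 1020 list entries matched one. Copies listed under the same symbol, among them opsins, keratins and *KCNJ1*, may share reads. Alternatives changed the filter, the constant added, the centring, the day term, the samples and the variance model.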

Additional observations from a re-analysis of the deposited data

Results flagged for a closer look

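In 8 of 364 groups of 4 samples looked at among the named genes, a sample stood apart from the other 3 by a gap above Dixon's critical share of the group's range, where chance would pick out about 1 in 20 groups. Among cortisol-treated *klf9*-/- larvae these were *hnrnph1l* in replicate 1 (469 normalized counts, others 528 to 535), *hnrnph1* in replicate 4 (155, others 130 to 134), *cybb* in replicate 4 (38, others 65 to 69) and a *KCNJ1* copy in replicate 1 (147, others 90 to 98). Among vehicle-treated *klf9*-/- larvae they were *opn1sw2* in replicate 4 (9993, others 9630, a gap of neighbouring ranks), *HSP90AA1* in replicate 2 (3860, others 5090 to 5304), *CALR* in replicate 4 (1967, others 2214 to 2248) and *PLBD2* in replicate 3 (330, others 466 to 470).

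The cortisol effect on *opn1sw2*, a blue cone opsin, differed between the preparation days in *klf9*-/- larvae, by 0.997 on the log2 scale (day 2 minus day 1, limma adjusted p = 0.0213), with an effect of −1.17 on day 1 and −0.17 on day 2.

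The cortisol effect differed between *klf9*-/- and WT larvae for 7 named genes, with differences of log2 effects (*klf9*-/- minus WT, limma) of −3.12 for *mxc* (adjusted p = 0.00622), −2.47 for *irf1b* (0.00366), −2.38 for *stat1b* (0.0046), −1.99 for *olfm4l2* (0.00209), −1.74 for *marco* (0.00531), −1.43 for *cybb* (0.00469) and −1.13 for *ncf1* (0.0196). For all 7 genes the 4 WT cortisol samples lay above every other sample.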

How the results depend on the processing

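All 1043 called genes, which were chosen on these same samples, kept their direction in every setting, and depth cannot be weighed because the normalization removed it. By the balance of the design the effect is the same with the 8 samples alone, the block, no day, no trend or a mean for each condition and day. In those settings the direction could not change. Raised and lowered genes numbered 1174 and 1389 in the 8 *klf9*-/- samples alone, 257 and 213 there with the replicate block, 244 and 230 with the replicate block in all 16 samples, 1972 and 2301 with a mean for each condition and day, 198 and 167 from day 1 alone, 204 and 58 from day 2 alone, 209 and 212 without a variance trend, 1330 and 1634 with array weights, and 0 and 0 with no preparation day (617 and 837 at an unadjusted p under 0.05, limma). They ranged from 0 to 1493 raised and from 0 to 1816 lowered when a sample was left out, over fits with and without the WT samples. In the 16-sample fits they were 120 and 93 without cortisol replicate 2, 389 and 397 without cortisol replicate 4 and 614 and 606 without vehicle replicate 4 of the *klf9*-/- larvae, 1309 and 1541 without WT vehicle replicate 1, 360 and 330 without WT vehicle replicate 2 and 276 and 247 without WT vehicle replicate 4. A minimum mean of 75 gave 667 and 744, no minimum 469 and 483, and 10 counts added 519 and 606. Median centring left 504 and 539, as the samples already shared a median of 113. Of 160 named genes past the threshold, 90 kept the call with the replicate block and 154 in the 8 *klf9*-/- samples. The fits of the *klf9*-/- samples alone that leave out a sample or use the block were added after seeing the data.

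Genes that differed between genotypes numbered 36, against 10 with a minimum mean of 75, 53 with 10 counts added or with array weights, 2 with no preparation day, 8 from day 1, 0 from day 2, 47 with a mean for each condition and day, 28 with the replicate block and 40 without a trend, and 22 to 51 without 1 sample. Genes that differed between days numbered 36, against 16 in the 8 *klf9*-/- samples, 60 with array weights, 1 without a trend and 0 to 292 without 1 sample. *NR3C1* had a log2 effect of 0.0134 on day 2 alone, and *fkbp5* ranged from −0.076 to 0.533 without 1 sample. The *klf9* effect ranged from 0.0431 to 0.377. The cause of these differences was not tested.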

Other observations

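The gene families described here were chosen after their values in *klf9*-/- larvae were seen, so their counts are descriptions. Lysosomal enzymes and membrane proteins, which break down material taken up by a cell, had 13 of 62 members raised by cortisol (21.0%, against 2.35% of all tested genes) and 0 lowered. Their median log2 effect was 0.22, and 8 of the 13 kept the call with the replicate block. *SMPD1*, acid sphingomyelinase, had 330, 317, 280 and 261 normalized counts with cortisol, against 238, 244, 162 and 164 with vehicle, and all cortisol samples lay above all vehicle samples (log2 effect 0.58 ± 0.13, limma adjusted p = 0.0332). *TPP1*, a lysosomal peptidase, had 385, 362, 312 and 261 with cortisol and 274, 302, 212 and 204 with vehicle (0.42 ± 0.09, adjusted p = 0.0318). *laptm5*, a lysosomal membrane protein of blood cells, had 84, 72, 44 and 32 with cortisol and 37, 46, 25 and 22 with vehicle (0.79 ± 0.18, adjusted p = 0.0343). The last 2 were apart within each day and overlapped across days. The summed level of the list was 41065, 40622, 36947 and 35569 with cortisol and 35972, 39466, 28774 and 28487 with vehicle.

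Claudins and occludins, which seal the space between epithelial cells, had 5 of 38 members raised (13.2%) and 0 lowered, and 4 of the 5 kept the call with the block. *cldn8.2* had 752, 636, 351 and 284 with cortisol and 351, 359, 202 and 212 with vehicle (0.79 ± 0.17, adjusted p = 0.0329). *oclna* had 1132, 1044, 774 and 565 with cortisol and 728, 760, 430 and 430 with vehicle (0.58 ± 0.13, adjusted p = 0.0332). Both were higher in the cortisol samples of each day. Of 7 copies listed as *KCNJ1*, a potassium channel that ionocytes of fish express, 5 were raised, with log2 effects from 0.61 to 0.91, and 3 of the 5 kept the call with the block. These copies share a name and may share reads, so they are not 5 separate measurements.

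On the lowered side, 8 of 17 condensin and cohesin subunits were lowered (47.1%, against 2.51% of all tested genes) and 0 raised (4 of the 8 also with the block), with a median log2 effect of −0.39. *SMC2*, the partner of Smc4, had 129, 166, 258 and 238 with cortisol and 300, 282, 302 and 286 with vehicle, apart in all samples (−0.62 ± 0.14, adjusted p = 0.034). Of 47 kinesins 9 were lowered (19.1%) and 0 raised (5 also with the block), and 8 of the 9 belong to the mitotic motors, such as *kif20bb* with 40, 63, 78 and 90 with cortisol and 96, 102, 122 and 115 with vehicle (−0.74 ± 0.15, limma adjusted p = 0.0318). Of 26 heterogeneous nuclear ribonucleoproteins, which package and splice nascent RNA, 12 were lowered (46.2%) and 0 raised (4 also with the block), and 25 had negative effects. *HNRNPAB* had 3862, 4382, 5092 and 4960 with cortisol and 6007, 5518, 6554 and 6366 with vehicle, apart in all samples (−0.42 ± 0.09, adjusted p = 0.0318).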
